A study of Homo sapiens with 12 samples.

Results

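Long intergenic noncoding RNAs (lincRNAs) were examined in polyA RNA of HEK293T, a human embryonic kidney cell line. The genes were chosen by 3 criteria: the annotated biotype lincRNA, a name not starting with SNHG, and a count of at least 1200 summed over all 12 libraries. This selected 110 of the 7629 lincRNA genes in a table of 58735 genes, and 3821 lincRNA genes had at least 1 count. The summed counts that chose the genes were measured in the same libraries, so the levels below are a description. The genes just inside the limit were LINC01291 with 1201 counts and AL392172.1 with 1202, and those just outside were AC102953.2 with 1185 and AC090114.2 with 1178. XIST and its antisense gene TSIX met the criteria and are counted among the 110, but no level of either is given.

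Wild-type cells of this 1 line were grouped as DMSO, CEP, 4SU and CEP+4SU, with 3 libraries each. CEP is a clickable electrophilic purine, a cysteine-reactive probe carrying an alkyne, applied for 1 h at 25 µM according to the series design. 4SU is 4-thiouridine, a photoreactive nucleoside that cells build into new RNA, supplied for 16 h at 100 µM. The labels' protocol describes irradiation at a wavelength that crosslinks 4SU-containing RNA to protein before the probe is added, and which groups received the light is not given in the sources used here. The series design calls the replicates independent, but the labels name no separate cultures or days, so the p-values measure the spread between these libraries.

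Library totals ran from 16569114 to 24644734 counts on genes. The HEK293T marker genes PAX2, LHX1, KRT8, KRT18, VIM and NEFM were all detected in every library, with a summed level of 109.7 to 121.0 FPKM, the level per gene length and library size. Of 5 melanocyte, 3 leukocyte, 2 hepatocyte and 3 fibroblast markers, TYR and CD3E were at 0 in all 12 libraries and COL1A2 in 11, and the lists summed to at most 3.29, 2.38, 0.309 and 4.24 FPKM. CEP replicate 2 and CEP+4SU replicate 2 had the fewest genes detected, 22230 and 22627 against 24376 to 25869 in the others. With both left out, a fit chosen after seeing the data, the calls in CEP+4SU against DMSO were the same 2 lincRNA genes as below, and NEAT1 and MIR503HG passed for CEP averaged over 4SU. The share of all genes called in that fit is not given here.

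LincRNAs are transcripts from between coding genes that are often spliced and polyadenylated like messenger RNA but carry no long open reading frame. Some act where they are made, on chromatin or in nuclear bodies, others bind proteins in the cytoplasm, and some are precursors of microRNAs or are made together with a coding gene from a shared promoter region. They are usually scarcer than messenger RNA, so that a count filter keeps a small part of the annotated set. In bulk RNA, fewer cells making a transcript and less of it per cell cannot be told apart.

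The 110 genes lay on 23 chromosomes, with 10 on chromosome X, 9 on chromosome 7 and none on chromosome Y. Their annotated lengths had a median of 3132 bases and ran from 333 bases (FOXCUT) to 37027 bases. Annotated lincRNA genes with a count but fewer than 1200 had a median length of 943 bases, and those with no count 648 bases. The split is by the count that chose the 110, so these lengths are a description. The GC content of the 110 had a median of 45.8% and ran from 32.7% to 70.9%. For 72 genes no exonic base was shared with another gene, and 16 shared at least 10% of their exonic bases on either strand. The strand setting of the counting is not given in the sources used here, and reads from such shared bases cannot be assigned to 1 gene. All 110 genes passed the filter on low counts, with at least 46 counts in every library. The median biological coefficient of variation, the spread between replicates beyond counting, was 0.140 for them and 0.117 for all 17729 genes tested.

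On the per-length FPKM scale the median gene had a mean level of 3.66, and 102 of the 110 reached a mean of 1. Among the genes for which levels are given, NORAD was the highest with a mean of 66.1 FPKM. FOXCUT followed with 17.4 FPKM, LINC02381 with 16.4, AL035446.1 with 12.8, MAPKAPK5-AS1 with 12.5, EBLN3P and MALAT1 each with 12.1, and AP001505.1 with 11.6 FPKM. Apart from NORAD, the genes named next to each other here had overlapping ranges over the 12 libraries and are not separated by their spread. FOXCUT, AL035446.1 and AP001505.1 are annotated as 333, 453 and 443 bases long, and their levels rest on 1404, 1380 and 1233 counts in all. Of the MAPKAPK5-AS1 exonic bases, 34.6% are also exonic in MAPKAPK5 on the other strand.

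**Figure D1:**
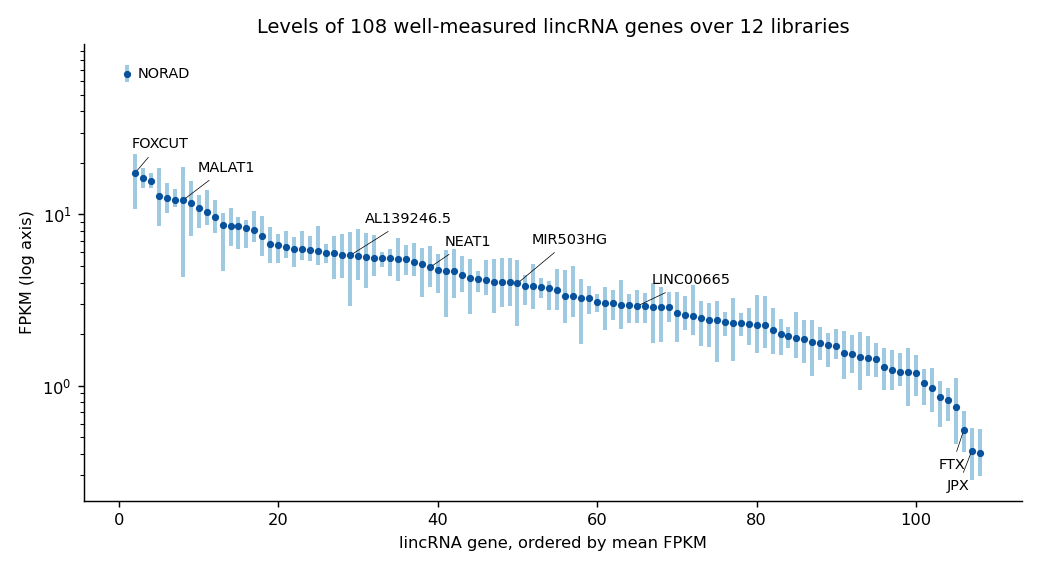
Mean FPKM (points, log axis) of 108 lincRNA genes ordered by level, with bars from the lowest to the highest of 12 libraries; XIST and TSIX are left out. NORAD stands at 66.1 FPKM above a continuous range, and JPX and FTX lie near its lower end at 0.417 and 0.552 FPKM.

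NORAD, a cytoplasmic RNA that binds PUMILIO proteins in many copies of their recognition element, is a single-exon gene at chr20:36045622-36050960 on the minus strand (GRCh38) and shares no exonic base with another gene. Its level was 59.6, 64.3 and 64.9 FPKM in DMSO, 62.1, 69.2 and 64.5 in CEP, 62.2, 69.7 and 68.0 in 4SU, and 66.1, 74.8 and 67.7 in CEP+4SU. The CEP+4SU libraries lay above the DMSO libraries without overlap, while both single treatments overlapped DMSO. Such separation of CEP+4SU from DMSO, in either direction, held for 28.7% of all genes tested and 21.8% of the 110. The log2 fold change of NORAD in CEP+4SU against DMSO was 0.14 (SE 0.074) and did not pass the test (adjusted p = 0.270, edgeR quasi-likelihood test with Benjamini-Hochberg adjustment over all genes tested).

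Of the 110 genes, 2 passed the test in CEP+4SU against DMSO, LINC00665 upward and AL139246.5 downward. Among all genes tested, 1.64% passed there. With CEP alone against DMSO no lincRNA passed, against 0.0564% of all genes, and 13 of the 110 (11.8%) had an unadjusted p under 0.05, against 18.6% of all genes. With 4SU alone none passed, against 0.00564% of all genes, and 12 (10.9%) lay under 0.05 before adjustment, against 6.50% of all genes. With CEP averaged over 4SU none passed, against 0.276% of all genes, and 18 (16.4%) lay under 0.05 before adjustment, against 24.3% of all genes. With 4SU averaged over CEP, 1 passed, LINC00665 again, against 0.558% of all genes. The interaction of CEP with 4SU called no lincRNA and 0% of all genes, with 1 lincRNA, PSMG3-AS1 with a term of -0.60 (SE 0.28), at an unadjusted p under 0.05 (0.909%), against 2.63% of all genes. The 3 comparisons with DMSO share its libraries. DESeq2 called 0, 0, 6, 2, 1 and 0 of the 110 in these 6 comparisons in the order CEP, 4SU, CEP+4SU, CEP averaged, 4SU averaged and interaction, and limma on log2(FPKM + 1) called 0 in each. DESeq2 gave an adjusted p to 56, 5, 90, 42, 110 and 110 of them, so that its count with 4SU alone rests on 5 genes. The shares of all genes called by DESeq2 and limma are not given here.

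LINC00665, a lincRNA that has been reported to encode a small peptide, lies at chr19:36313067-36331718 on the minus strand. It has 7201 exonic bases, of which none is shared with another gene. In CPM, counts scaled by library size, it had 16.8, 18.2 and 17.9 in DMSO, 17.9, 20.6 and 18.98 in CEP, 23.5, 21.3 and 22.6 in 4SU, and 24.7, 24.8 and 26.2 in CEP+4SU. All 6 libraries with 4SU lay above all 6 without it, and the CEP and DMSO libraries overlapped. LINC00665 rose with 4SU averaged over CEP by a log2 fold change of 0.37 (SE 0.073, adjusted p = 0.0259) and in CEP+4SU against DMSO by 0.52 (SE 0.10, adjusted p = 0.0262). Its interaction term was 0.05 (SE 0.15), and its values for the pairs of groups that differ by 4SU were 0.35 (SE 0.10) without CEP and 0.40 (SE 0.10) with it. The fold with 4SU averaged over CEP stayed between 0.35 and 0.41 with any 1 library left out, but passed in 4 of these 12 fits; it was lost without any DMSO or any 4SU library, without CEP replicate 1 and without CEP+4SU replicate 3. The largest adjusted p among them was 0.109. In CEP+4SU against DMSO it passed in 7 of 12 such fits, at folds of 0.48 to 0.55, and was lost without any DMSO library and without CEP+4SU replicate 2 or 3, with an adjusted p of at most 0.136.

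The sequence around the LINC00665 start is shown because it is 1 of the 2 genes past the threshold. Its start is the same in RefSeq and GENCODE, and AL139246.5 has no window in the RefSeq table. The window chr19:36331669-36331968 (minus strand, GRCh38.p14, RefSeq) reaches from 250 bases before the start to 50 after it, 5′ to 3′, and capitals mark CCAAT on either strand.

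LINC00665: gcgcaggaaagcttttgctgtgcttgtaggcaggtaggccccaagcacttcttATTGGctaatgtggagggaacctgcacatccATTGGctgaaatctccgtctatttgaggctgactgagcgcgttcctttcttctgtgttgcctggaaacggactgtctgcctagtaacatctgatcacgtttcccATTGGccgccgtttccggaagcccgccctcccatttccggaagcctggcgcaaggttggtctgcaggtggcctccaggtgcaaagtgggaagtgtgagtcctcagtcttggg

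The window holds 3 matches to CCAAT, the letters bound by the factor NF-Y. Of 35116 RefSeq promoter windows of this length, 34.6% hold at least 1 match and 3.26% at least 3. Of the 110 lincRNA genes, 46 have a window in that table.

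AL139246.5 lies at chr1:2530064-2547460 on the plus strand and starts within HES5, a gene on the minus strand that encodes a transcriptional repressor downstream of Notch signalling. Its first exon, 39 bases at chr1:2530064-2530102, lies in the first intron of HES5, whose flanking exons are chr1:2530111-2530245 and chr1:2529846-2530011. The other annotated exons of AL139246.5 begin at chr1:2545969, beyond HES5, and no exonic base is shared. The starts of the genes are 181 bases apart in GENCODE. AL139246.5 had 12.1, 11.6 and 11.1 CPM in DMSO, 8.79, 6.60 and 10.9 in CEP, 10.5, 9.73 and 8.24 in 4SU, and 7.74, 4.74 and 4.52 in CEP+4SU. Each of the 9 treated libraries lay below the lowest DMSO library, and the CEP+4SU libraries were below all 4SU libraries. Among all genes tested, 28.7% had no overlap with DMSO in CEP+4SU, 23.7% in CEP and 17.9% in 4SU, in either direction. The share for all 9 treated libraries together, and that for CEP+4SU against 4SU, were not counted.

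AL139246.5 fell in CEP+4SU against DMSO by 1.04 on the log2 scale (SE 0.20, adjusted p = 0.0262). With CEP averaged over 4SU its fold was -0.57 (SE 0.14, adjusted p = 0.0653) and with 4SU averaged over CEP -0.47 (SE 0.14, adjusted p = 0.153), neither past the threshold. With 1 library left out the fold in CEP+4SU ran from -1.34 to -0.91. The call was lost without any DMSO library and without CEP+4SU replicate 2 or 3, with an adjusted p of at most 0.1252. AL139246.5 has the highest GC content of the 110, 70.9%. After removal of each library's trend with GC its fold in CEP+4SU was -0.61 (SE 0.18, adjusted p = 0.0903), and that for CEP averaged over 4SU was -0.17 (SE 0.12, adjusted p = 0.593). That for 4SU averaged over CEP was -0.44 (SE 0.12, adjusted p = 0.0375), which passed.

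HES5, whose values are given because of this arrangement and were seen first, had 8.84, 10.6 and 12.8 CPM in DMSO, 6.97, 5.36 and 4.79 in CEP, 8.42, 8.08 and 7.98 in 4SU, and 6.12, 3.79 and 4.57 in CEP+4SU. All 6 libraries with CEP lay below all 6 without it, and 1.73% of all genes tested had no overlap there in either direction. HES5 fell with CEP averaged over 4SU by 0.84 on the log2 scale (SE 0.14, adjusted p = 0.0110) and in CEP+4SU by 1.16 (SE 0.20, adjusted p = 0.0131). It passed for CEP averaged over 4SU in 12 of 12 fits with 1 library left out, and after removal of the GC trend at -0.54 (SE 0.12, adjusted p = 0.0422), but not with limma, and DESeq2 gave it no adjusted p there. In CEP+4SU it was lost without DMSO replicate 2 or 3 and without CEP+4SU replicate 3, with an adjusted p of at most 0.0820.

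The start region of HES5 is shown because the coding gene and the lincRNA begin beside each other here. The window is chr1:2530214-2530513 (minus strand, GRCh38.p14, RefSeq), 5′ to 3′, and its end lies 150 bases from the start of AL139246.5. The RefSeq start of HES5 is 18 bases from that in GENCODE. Capitals mark TGGGAA on either strand, the core of the site bound by RBPJ, the DNA-binding partner of Notch.

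HES5: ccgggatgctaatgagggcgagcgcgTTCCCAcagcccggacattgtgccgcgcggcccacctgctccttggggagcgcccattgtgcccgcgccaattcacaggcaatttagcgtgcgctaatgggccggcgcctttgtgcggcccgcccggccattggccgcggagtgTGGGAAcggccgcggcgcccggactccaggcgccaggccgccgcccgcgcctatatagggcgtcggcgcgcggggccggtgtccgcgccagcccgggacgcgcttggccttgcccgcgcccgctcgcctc

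The window holds 2 matches on opposite strands. Of the RefSeq windows, 24.0% hold at least 1 match and 3.80% at least 2. The GC content of the window is 74.3%, against 55.3% for that of LINC00665.

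**Figure D2:**
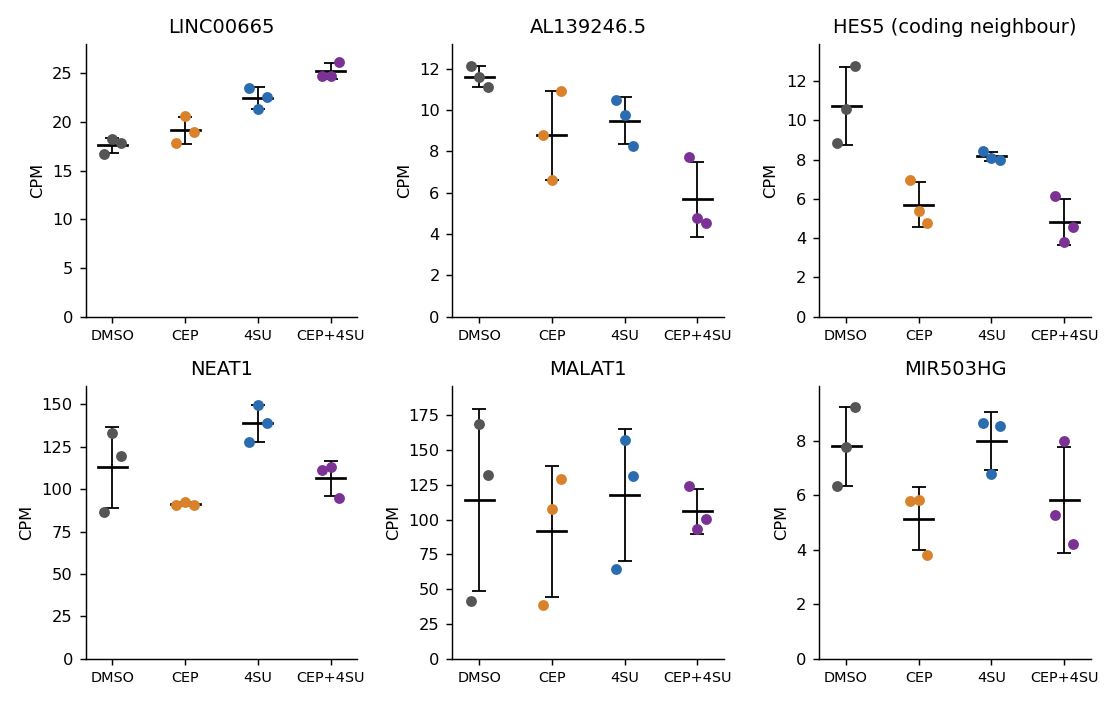
CPM in each library (points, replicates 1 to 3 from left to right) with the mean (line) and SD (bars, n = 3) of each group, from 0 on the axis. The libraries with 4SU lie above those without it for LINC00665, AL139246.5 and its coding neighbour HES5 are lowest in CEP+4SU, and MALAT1 spans 38.4 to 168.4 CPM.

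NEAT1 and MALAT1, neighbouring genes on chromosome 11, encode nuclear RNAs, the scaffold of paraspeckles and a component of nuclear speckles. Counts per gene from polyA RNA do not separate their annotated transcripts, 8 for NEAT1 and 17 for MALAT1. The values below are therefore not levels of the scaffold RNA alone. NEAT1 (chr11:65422774-65445540, plus strand) had 86.6, 132.9 and 119.3 CPM in DMSO, 90.6, 92.6 and 90.5 in CEP, 127.7, 149.7 and 139.2 in 4SU, and 111.3, 113.3 and 94.7 in CEP+4SU. The CEP+4SU libraries lay below all 4SU libraries, while DMSO replicate 1 lay below every CEP library. How many of all genes had no overlap between CEP+4SU and 4SU was not counted. NEAT1 had a fold of -0.35 (SE 0.083, adjusted p = 0.0611) with CEP averaged over 4SU and 0.26 (SE 0.083, adjusted p = 0.165) with 4SU averaged over CEP, in neither case past the threshold. Without DMSO replicate 1, CEP replicate 1 or CEP+4SU replicate 1 the CEP fold passed, and over all 12 such fits it ran from -0.43 to -0.28 with adjusted p from 0.00750 to 0.164. It also passed after removal of the GC trend, at -0.39 (SE 0.070, adjusted p = 0.00848), and with DESeq2.

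MALAT1 (chr11:65497688-65506516, plus strand) had 41.4, 168.4 and 132.1 CPM in DMSO, 38.4, 107.3 and 128.9 in CEP, 64.8, 156.8 and 130.9 in 4SU, and 124.2, 93.3 and 100.5 in CEP+4SU. Replicate 1 was the lowest of its group in DMSO, CEP and 4SU and the highest in CEP+4SU. Its coefficient of variation, 0.335, was the highest of the 110, with JPX next at 0.224. Its folds of -0.23 (SE 0.28) with CEP and 0.13 (SE 0.28) with 4SU were smaller than their errors.

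Of the proteins that these RNAs work with, 4 lists were counted. In 20 gene rows of paraspeckle proteins, RBM14, a protein that paraspeckles require, fell in CEP+4SU against DMSO by 0.54 on the log2 scale (SE 0.099, adjusted p = 0.0185) and with 4SU averaged over CEP by 0.35 (SE 0.070, adjusted p = 0.0300), and the other members passed in no comparison. In 21 genes of the nuclear exosome and its cofactors, which degrade unstable nuclear RNA, EXOSC6 fell in CEP+4SU by 0.42 (SE 0.081, adjusted p = 0.0237). In 5 genes of NORAD's partners, PUM2, a PUMILIO protein, rose in CEP+4SU by 0.42 (SE 0.094, adjusted p = 0.0339). In 9 genes of microRNA processing none passed in any of the 6 comparisons, and the smallest adjusted p was 0.0716. Of the 55 genes of the 4 lists, 3 (5.45%) passed in CEP+4SU against DMSO, beside 1.64% of all genes, 1 passed with 4SU averaged over CEP, and none in the other 4 comparisons.

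JPX and FTX, noncoding genes of the X-inactivation centre, run in opposite directions over shared ground. JPX had 7.74, 5.03 and 3.86 CPM in DMSO, 4.05, 6.24 and 6.93 in CEP, 4.87, 7.55 and 6.15 in 4SU, and 3.98, 7.19 and 4.72 in CEP+4SU, so that all groups overlapped. FTX had 15.7, 16.9 and 13.9 CPM in DMSO, 11.9, 13.7 and 14.95 in CEP, 16.0, 16.0 and 17.2 in 4SU, and 15.7, 20.4 and 17.9 in CEP+4SU. The fold of FTX with 4SU averaged over CEP was 0.25 (SE 0.093, adjusted p = 0.251). Since 78.0% of the JPX exonic bases are exonic in another gene on the other strand and 44.3% of those of FTX are, these values cannot be given to 1 gene with certainty.

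Among 25 listed microRNA host genes found in the table, 2 met the criteria, MIR503HG and MIR222HG, both on the minus strand of chromosome X. Mature microRNAs pair with messenger RNA mainly through the seed, bases 2 to 8, which is in capitals in the RefSeq sequences (GRCh38.p14) that follow. They are shown because the host RNA was measured here and the small RNAs were not.

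miR-503-5p: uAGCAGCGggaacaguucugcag

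miR-424-5p: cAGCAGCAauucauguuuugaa

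miR-221-3p: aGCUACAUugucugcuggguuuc

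miR-222-3p: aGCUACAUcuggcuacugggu

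The first pair belongs to the MIR503HG locus. miR-503-5p, at chrX:134546371-134546393, lies inside the gene, chrX:134543337-134546632, and miR-424-5p, at chrX:134546680-134546701, begins 69 bases before the annotated start. The other pair lies within MIR222HG, chrX:45745211-45770274, at chrX:45746180-45746202 and chrX:45747036-45747056, and has the seed GCUACAU in common. In the count table the microRNA genes MIR503, MIR424, MIR221 and MIR222 themselves had 6, 1, 100 and 17 counts over all libraries.

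MIR503HG had 6.34, 7.78 and 9.25 CPM in DMSO, 5.80, 5.83 and 3.80 in CEP, 8.63, 6.78 and 8.55 in 4SU, and 5.27, 8.004 and 4.22 in CEP+4SU. The CEP libraries lay below all DMSO libraries, while CEP+4SU replicate 2 overlapped the 4SU libraries. CEP and DMSO did not overlap for 23.7% of all genes tested and 13.6% of the 110, in either direction. The fold of MIR503HG with CEP averaged over 4SU was -0.53 (SE 0.16, adjusted p = 0.0846). MIR222HG had a mean of 11.04 ± 2.75 CPM in DMSO, 11.5 ± 0.62 in CEP, 11.1 ± 0.83 in 4SU and 11.4 ± 3.84 in CEP+4SU (SD, n = 3), and its folds were 0.05 (SE 0.14) with CEP and 0.00 (SE 0.14) with 4SU.

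The remaining genes with a listed role did not pass. LINC00467, a lincRNA reported to encode a small mitochondrial protein, had 14.3 ± 1.03 CPM in DMSO and 12.3 to 13.3 in the treated groups' means. PURPL, a p53-induced RNA, had 16.2 ± 1.41 CPM in DMSO, 15.4 ± 1.87 in CEP, 15.6 ± 0.79 in 4SU and 17.9 ± 4.33 in CEP+4SU (SD, n = 3). CRNDE, a lincRNA beside the homeobox gene IRX5, had 22.6 ± 1.45 CPM in DMSO, 19.5 ± 2.81 in CEP, 22.3 ± 1.38 in 4SU and 23.4 ± 0.60 in CEP+4SU. None of the 7 imprinted and 4 HOX noncoding genes looked up met the criteria.

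After AL139246.5 and NEAT1, the genes with the smallest p for CEP averaged over 4SU were PAXIP1-AS1, AC093297.2 and MIR503HG. PAXIP1-AS1, which starts 364 bases from the coding gene PAXIP1 in the opposite direction, had 16.0, 18.1 and 15.3 CPM in DMSO, 14.6, 11.8 and 12.95 in CEP, 17.9, 19.04 and 15.7 in 4SU, and 13.1, 13.95 and 15.8 in CEP+4SU. Its fold was -0.31 (SE 0.092, adjusted p = 0.0791), and that of PAXIP1 was 0.09. PAXIP1-AS1 passed there with DESeq2. AC093297.2 had 4.80, 5.52 and 4.65 CPM in DMSO, 4.90, 7.25 and 7.97 in CEP, 4.66, 4.72 and 4.17 in 4SU, and 5.16, 8.53 and 6.58 in CEP+4SU. Replicate 1 was the lowest library of both CEP groups, and the fold was 0.51 (SE 0.15, adjusted p = 0.0800). Without CEP replicate 1, 8 of the 110 passed for CEP averaged over 4SU, these 5 and AC009041.2, LINC01291 and LINC01521, and without CEP+4SU replicate 1, 4 passed. The share of all genes that passed in these fits is not given here, so the counts are not a result about lincRNA genes.

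For 4SU averaged over CEP, LINC00665 was followed by AC011815.1, AL133325.3, AL139246.5 and LINC01694. AC011815.1 had 12.2, 13.3 and 15.3 CPM in DMSO, 15.5, 13.8 and 14.4 in CEP, 16.0, 18.1 and 17.4 in 4SU, and 18.1, 21.3 and 15.7 in CEP+4SU. Like LINC00665, it had all 6 libraries with 4SU above all 6 without, and no other of the 110 did, while none was lower without overlap; over all genes tested 1.35% had no overlap in either direction. The fold of AC011815.1 was 0.33 (SE 0.094, adjusted p = 0.119). AL133325.3, of whose exonic bases 15.6% are shared with the other strand, had 19.4 ± 2.57 CPM in DMSO and 25.4 ± 4.20 in 4SU, with a fold of 0.32 (SE 0.095, adjusted p = 0.129). LINC01694 had 19.8 ± 0.48 CPM in DMSO, 16.7 ± 0.83 in CEP, 22.9 ± 0.76 in 4SU and 20.2 ± 1.68 in CEP+4SU (SD, n = 3), with folds of 0.24 (SE 0.075, adjusted p = 0.154) for 4SU and -0.21 (SE 0.075, adjusted p = 0.104) for CEP.

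Over the whole set, most lincRNA genes had a small positive fold with 4SU. With 4SU averaged over CEP, 82 of the 110 had a fold above 0 and 28 below it, and 21 had an unadjusted p under 0.05, of which 20 were above 0. Among all genes tested 49.3% had a fold above 0 and 12.6% an unadjusted p under 0.05. The median log2 fold change was 0.11 for the lincRNA genes and -0.0019 for all genes. In 4SU against DMSO the medians were 0.11 and -0.01, and in CEP+4SU against CEP, which shares no library with that comparison, 0.11 and -0.0002. Leaving out 1 library, the difference of the medians for 4SU averaged over CEP ran from 0.07 to 0.13. Scaling by library size alone moved both medians, to 0.15 and 0.04, and removal of the GC trend gave 0.08 and -0.02.

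**Figure D3:**
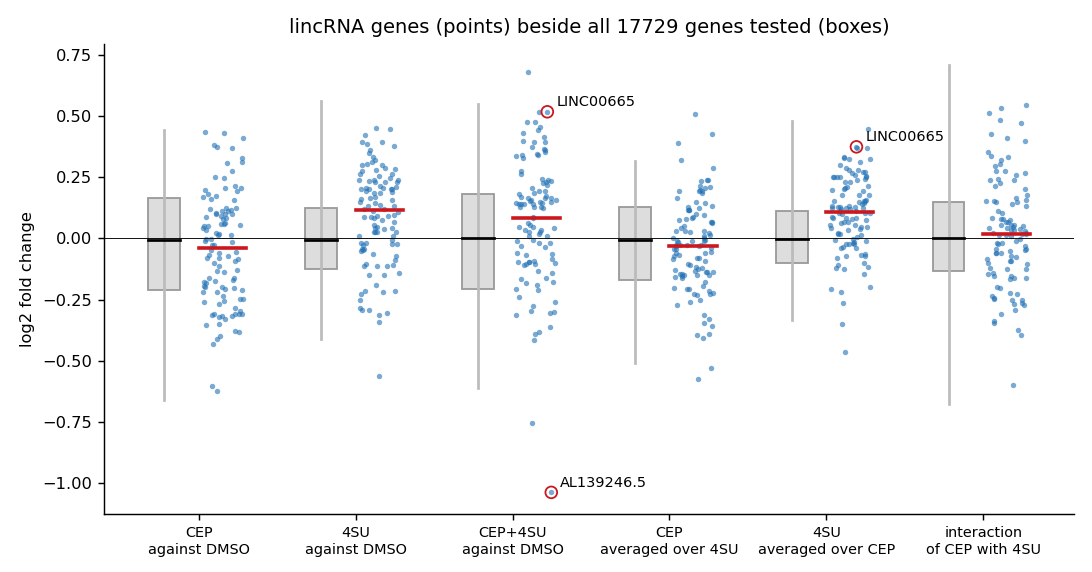
Log2 fold changes of 108 lincRNA genes (points; XIST and TSIX left out) with the median of all 110 (red line), beside all 17729 genes tested (box from the 25th to the 75th percentile with the median, line from the 5th to the 95th). Red rings mark the calls, LINC00665 and AL139246.5, and the red lines are highest in the comparisons of 4SU, at 0.11.

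Genes of other kinds with at least 1200 counts were set beside them. The median fold with 4SU averaged over CEP was 0.10 for 128 antisense genes, 0.06 for 49 processed transcripts and -0.02 for 11103 protein-coding genes. The median level was 3.66 FPKM for the lincRNA and for the antisense genes and 8.23 FPKM for the coding genes. The summed counts of the 108 lincRNA genes without XIST and TSIX were 0.163, 0.194 and 0.185% of the DMSO libraries, 0.165, 0.177 and 0.181% in CEP, 0.191, 0.207 and 0.204% in 4SU, and 0.193, 0.202 and 0.186% in CEP+4SU. The 4SU and DMSO shares overlapped, since DMSO replicate 2 lay above 4SU replicate 1.

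The medians with CEP lay nearer to those of all genes. For CEP averaged over 4SU 46 genes had a fold above 0 and 64 below, with a median of -0.03 against -0.01 over all genes. The 18 genes with an unadjusted p under 0.05 made up 16.4%, against 24.3% of all genes, with 7 above 0 and 11 below. Across the 110 genes the fold with CEP went with GC content at Pearson r = -0.51, and that with 4SU at r = -0.22; these are descriptions over genes of the same libraries. AL139246.5 and AC009041.2, with the highest GC contents of 70.9% and 67.1%, had folds with CEP of -0.57 and -0.41.

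The groups allow each agent's fold to be read from a pair of comparisons with no library in common. The folds of the 110 genes in CEP against DMSO and in CEP+4SU against 4SU had r = 0.49, and 73 genes had the same sign in both, 29 above and 44 below 0. For 4SU against DMSO and CEP+4SU against CEP r was 0.34, and 70 genes had the same sign, 54 above and 16 below 0. Over all genes tested r was 0.20 and 0.15, and 69.7% and 61.0% had the same sign, beside 66.4% and 63.6% of the lincRNA genes. Only 11727 genes reached the 1200 counts that all 110 have, while 17729 were tested. The values of r are therefore not compared at equal depth. All 12 libraries share the cell line and the fit, and genes are not independent replicates. LINC00665, AC011815.1 and AL133325.3 were above 0 in both 4SU comparisons, and AL139246.5, NEAT1, MIR503HG and PAXIP1-AS1 below 0 in both CEP comparisons. These genes had been picked by small p in the averages of the same comparisons. Their equal signs therefore follow largely from that choice and are a description.

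**Figure D4:**
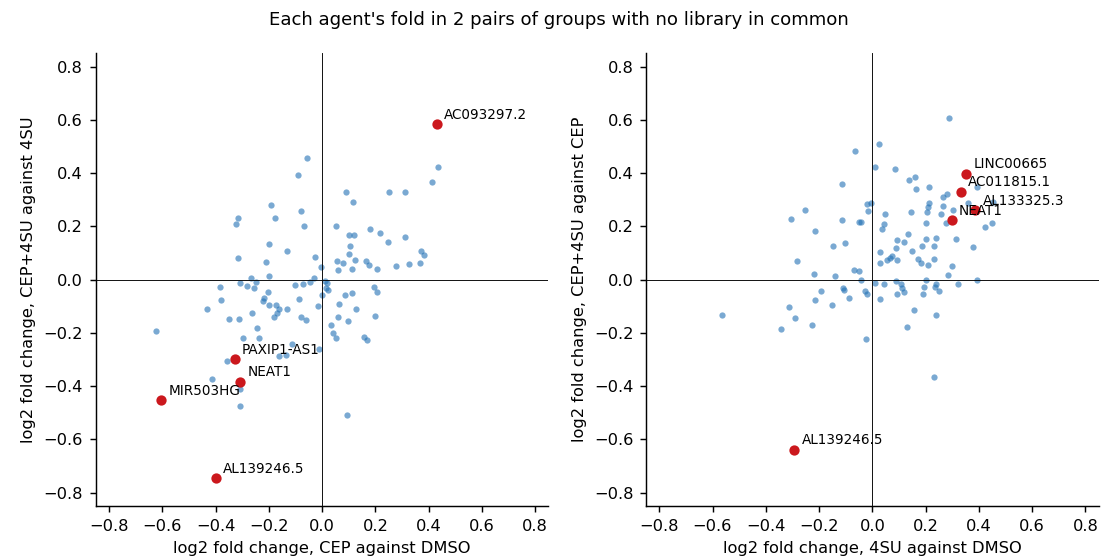
Log2 fold changes of 108 lincRNA genes in CEP against DMSO and in CEP+4SU against 4SU (left), and in 4SU against DMSO and in CEP+4SU against CEP (right). No library is in both axes of a panel, and more genes lie at the upper right for 4SU, 54 of 110 with XIST and TSIX counted, than for CEP, 29 of 110.

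Of the 110 genes, 32 (29.1%) started within 1000 bases of the start of a protein-coding gene on the opposite strand. This held for 11.2% of 3705 lincRNA genes with a count but fewer than 1200 and for 1.63% of 3805 with none. These sets are split by the same summed count that chose the 110, so the shares describe the selection. In 24 of the 32 pairs the genes do not overlap and run apart from each other, and in 8 they overlap at their starts, as AL139246.5 and HES5 do. The coding gene had more counts in 29 pairs, with a median ratio of 4.84. Several coding genes of these pairs encode developmental transcription factors, among them HES5, SOX21, MNX1 and SOX8.

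The folds of the lincRNA and its coding neighbour, both taken from the same libraries, had r = 0.62 over the 32 pairs with CEP averaged over 4SU and 0.50 with 4SU averaged over CEP. Without AL139246.5 and HES5 they were 0.47 and 0.35 over 31 pairs. No r was taken after removal of the GC trend or for other neighbouring genes, so a link within the pairs was not tested. The signs were the same in 22 pairs with CEP and in 15 with 4SU. MNX1-AS1, which starts 154 bases from the homeobox gene MNX1, had a fold with CEP of -0.13, and MNX1 one of -0.53 (SE 0.14, adjusted p = 0.0662). AC009041.2, 212 bases from SOX8, had 7.48, 8.13 and 8.13 CPM in DMSO, 7.03, 4.06 and 4.32 in CEP, 6.46, 3.71 and 5.84 in 4SU, and 4.19, 3.79 and 6.08 in CEP+4SU, all 9 treated libraries below DMSO. Its fold in CEP+4SU was -0.76, and that of SOX8 was -0.29 (SE 0.13), neither past the threshold. AC009041.2 also overlaps the coding gene LMF1, and 4.46% of its exonic bases are shared on the same strand. No overlap with DMSO, in either direction, was seen for 28.7% of all genes tested in CEP+4SU, 23.7% in CEP and 17.9% in 4SU. The share for all 9 treated libraries together was not counted.

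**Figure D5:**
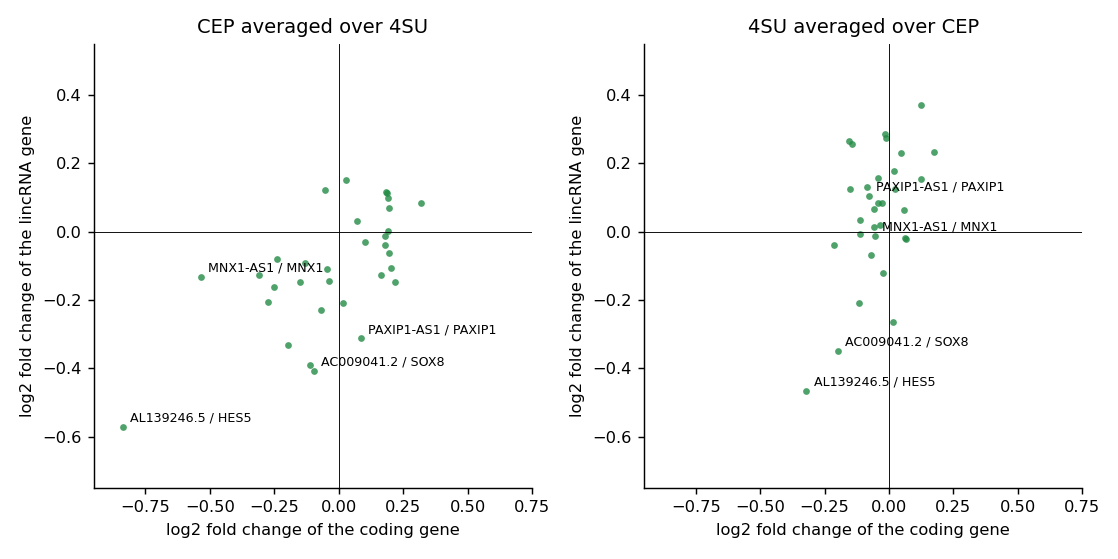
Log2 fold change of the lincRNA gene against that of the coding gene that starts within 1000 bases on the opposite strand, 32 pairs, for CEP averaged over 4SU (left) and 4SU averaged over CEP (right). AL139246.5 and HES5 lie farthest to the lower left in both panels, at -0.57 and -0.84 with CEP.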

How the data were processed

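RNA-seq libraries of HEK293T cells, 3 each for DMSO, CEP, 4SU and CEP+4SU, were compared. Reads were aligned by the authors to GRCh38 with HISAT2 2.0.5 and assigned to genes with featureCounts 1.5.0-p3, giving deposited counts that are not normalized. The authors derived the deposited FPKM from counts, gene length and a library size that is 0.981 to 1.03 of the total count. All 58735 identifiers lie at their GENCODE 29 positions. The authors' group means were not used.

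Low genes were removed by filterByExpr in edgeR with a minimum count of 10 and a minimum total of 15, and counts were normalized with TMM and fitted in 1 quasi-likelihood model of the 4 groups (edgeR 4.0.16, limma 3.58.1, DESeq2 1.42.0 and R 4.3.3). The p-values were adjusted by Benjamini-Hochberg over 17729 genes, with calls at 0.05. CPM use the TMM library sizes. Counts per library limit the precision of low genes. The fits were tested on simulated data.

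Named were genes past the threshold, the 10 with the highest mean FPKM, the 5 with the smallest p for CEP and for 4SU, members of listed roles, 2 on each side of the count limit, and of the partner lists those past the threshold. One gene selected by this rule is not reported here but is included in the counts. The other genes with values, HES5, MNX1, SOX8, PAXIP1, PSMG3-AS1 and AC009041.2, were chosen after their values were seen. The genes and lists were chosen with earlier results of these data known.

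Alternatives were DESeq2, upper-quartile and library-size scaling, other filters, limma on log2(FPKM + 1) and log2(FPKM + 0.1), a replicate block, removal of the GC trend and leaving out each library. A fit without CEP and CEP+4SU replicate 2 was added after seeing the data.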

Additional observations from a re-analysis of the deposited data

How the results depend on the processing

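The 2 calls in CEP+4SU against DMSO became 6 with DESeq2 (90 of the 110 given an adjusted p), 4 without a filter, 8 with a replicate block, 1 after removal of the GC trend and 0 with limma on log2(FPKM + 1) or log2(FPKM + 0.1). The 0 calls with CEP averaged over 4SU became 2 with DESeq2 (42 of the 110), 5 without a filter, 7 with the block, 1 after removal of the GC trend and 2 without CEP and CEP+4SU replicate 2, an alternative chosen after seeing the data. The 1 call with 4SU averaged over CEP became 3 without a filter, 4 after removal of the GC trend and 0 with either limma fit. Library-size scaling gave 3 calls in CEP+4SU, and no filter gave 2 calls with CEP against DMSO. The cause was not tested. Shares of all genes called in the alternative fits, including those with 1 library left out, are not given here. The counts are therefore not a result about lincRNA genes. Leaving out 1 library gave 0 to 1 calls for CEP against DMSO, 0 to 3 for CEP+4SU, 0 to 8 for CEP averaged over 4SU, 0 to 1 for 4SU averaged over CEP and 0 for 4SU against DMSO and for the interaction. Whether the replicate numbers pair the samples was not settled. Of 18 same-number pairs, 1 correlated above 0.1 (r from -0.05 to 0.14), and 7 of 12 libraries correlated best with their own number. The highest r was that of CEP replicate 1 with CEP+4SU replicate 1, at 0.14. CEP replicate 1 with CEP+4SU replicate 2 had r = -0.16. With the block NEAT1, PAXIP1-AS1 and MIR503HG were among the calls for CEP averaged over 4SU. The block changed no other count. LINC00665 and AL139246.5 kept their directions in every alternative. The lowest count of any of the 110 genes in a library was 46, and the size of change detectable at such counts was not tested.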
